A study of Homo sapiens with 4 samples.

Results

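The genes described here are those of the core splicing machinery and its main RNA-binding regulators whose symbol starts with SRSF, HNRNP, SNRP, SF3A, SF3B or PRPF in the array's probe-to-gene table. The rule uses the symbols and no measured value. The table gives these names to 103 probes of 69 genes, and 84 probes of 62 genes had a detection p under 0.01 on at least 2 of the 4 arrays and were tested, among 13152 probes tested in all, 11232 of which belong to the 8862 named genes tested. The other 19 probes were not detected on any array, which left SRSF12, HNRNPCL1, SNRPE, SF3A1, PRPF6, PRPF39 and PRPF40B without a tested probe. PRPF4B, a kinase of the splicing machinery, is not named by that table and was not analysed here. Of the 84 probes tested, 81 were detected on all 4 arrays and 3, for HNRNPA1, HNRNPM and SNRPD3, on 2 arrays.

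MIA PaCa-2 is an established human line of epithelial pancreatic origin, grown in high-glucose DMEM with 10% FBS. Total RNA came from 2 samples left untreated and 2 given interleukin-1β (IL-1β), a cytokine that signals through its receptor to NF-κB and stress kinases, at 2 ng/ml for 36 h, with 1 Illumina WG-6 v3 array per sample. The labels do not tell separate cultures from repeat preparations, so the p-values reflect only how far these particular samples lie apart, which may be technical variation. The number of arrays limits the precision, and for a single value an exact permutation test of 2 against 2 cannot give a p below 0.333.

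Control arrays had a mean raw intensity of 527 and 549 and IL-1β arrays one of 482 and 449, and 26.1% to 27.0% of probes were detected. The epithelial keratins KRT8, KRT18 and KRT19 were detected, whereas the other epithelial markers EPCAM and CDH1 were not. VIM was the only detected gene of 3 mesenchymal markers. None of 4 acinar, 3 islet and 3 fibroblast markers was detected, and 1 of 4 leukocyte markers (CD14) and 1 of 3 endothelial markers (CDH5) were.

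Splicing removes introns from pre-mRNA. The U1 and U2 snRNPs, particles of small nuclear RNA on a ring of Sm proteins, recognise the ends of the intron, and the SF3A and SF3B complexes hold U2 at the branch site. The tri-snRNP, which holds several PRPF proteins, then joins and the machinery becomes active. SR proteins, named for their arginine- and serine-rich domain, mostly bind exonic enhancers and favour the use of nearby splice sites, whereas many hnRNP proteins bind silencers and favour skipping, although both kinds act either way depending on position. Many SR and hnRNP transcripts also carry poison exons, whose inclusion sends the transcript to decay, so that the mRNA level of a factor and its protein need not move together.

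No splicing factor passed the threshold in the comparison of IL-1β with control, and the SR protein genes were the family that lay lowest after IL-1β. The smallest adjusted p of the 84 probes was 0.112, for SRSF3 (limma, Benjamini-Hochberg over all probes tested), and 0 probes of the 13152, a share of 0%, passed an adjusted p of 0.05. At an unadjusted p under 0.05, 11 of the 62 genes (17.7%) were lower after IL-1β and 3 (4.84%) were higher, each read by its probe of highest mean intensity. Over all 8862 genes, 8.36% were lower and 9.4% higher by the same rule. These counts of 11 and 3 became 6 and 0 without IL-1β replicate 1 (beside 5.88% and 6.1% of all genes), 6 and 0 without IL-1β replicate 2 (6.94% and 6.77%), 7 and 1 without control replicate 1 (5.45% and 7.12%) and 9 and 2 without control replicate 2 (5.87% and 6.88%). With the scaling factors of the authors' averages in place of quantile normalization and background correction, 16 probes passed an adjusted p of 0.05, all lower. Of all probes, 8.34% passed in either direction, and 858 of these 1097 were lower. That setting put the median of all probes tested at -0.044. The groups did not overlap for 22 genes that were lower (35.5%) and 12 that were higher (19.4%), against 25.1% and 26.3% of all genes. With a difference of at least 1.2-fold as well, 11 were lower and 2 higher, against 9.69% and 11% of all genes. The median log2 difference, IL-1β minus control, was -0.05 over the 62 genes and 0.00 over all genes. Because each value is a share of the RNA of the whole culture, fewer cells of a type and less RNA per cell cannot be told apart.

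**Figure D1:**
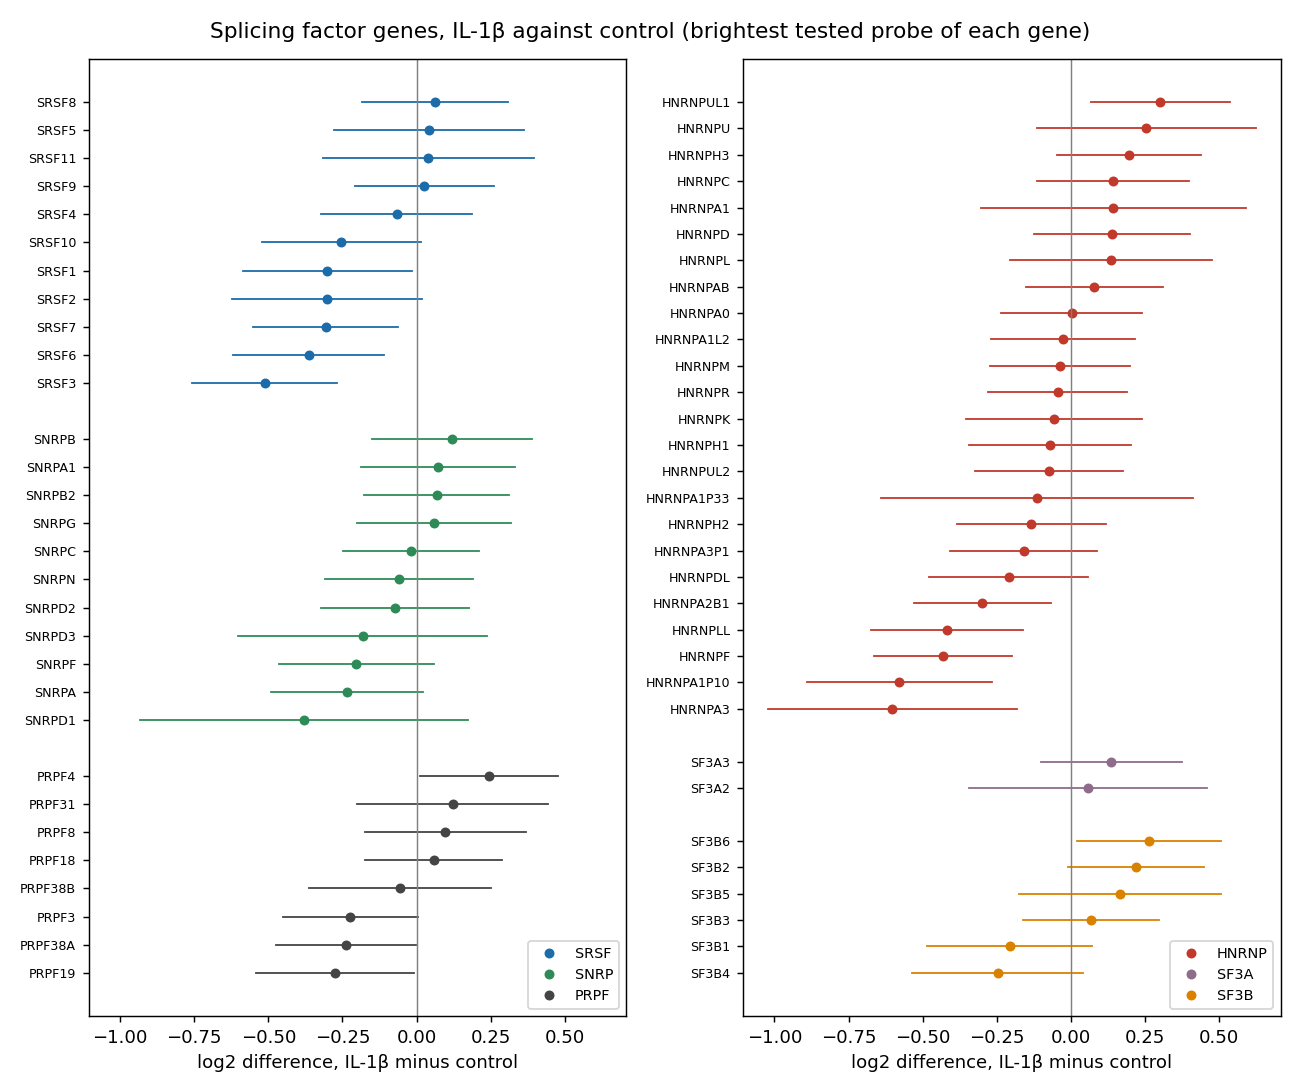
Log2 difference, IL-1β minus control, on the x axis for each of the 62 splicing factor genes, grouped by family. Bars are the 95% confidence interval of the limma fit (2 arrays a group). SRSF3, SRSF6 and 4 other SRSF genes lie to the left of 0, while the 5 remaining SRSF genes and most SF3A and SF3B genes lie near or to the right of it.

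Of the 11 SR protein genes tested, 7 lay below 0 after IL-1β and 4 above, around a median log2 difference of -0.25. In 6 of them the IL-1β arrays both lay below both control arrays (54.5%, against 25.1% of all genes), and in none did both lie above. At an unadjusted p under 0.05, 4 (36.4%) were lower and 0 higher, against 8.36% and 9.4% of all genes. The median of the family on each array, relative to the mean of the controls, was 0.02 and -0.02 on the controls and -0.24 and -0.15 on the IL-1β arrays. The median difference was -0.16 without control replicate 2 and -0.15 without IL-1β replicate 1. The 3 detected epithelial markers were lower by a similar amount, with log2 differences of -0.21 ± 0.11 for KRT8, -0.24 ± 0.10 for KRT18 and -0.20 ± 0.12 for KRT19, each with groups that do not overlap, while VIM differed by 0.0044 ± 0.09. The summed normalized intensity of the 5 epithelial markers was 15660 and 16276 on the controls and 14002 and 13167 after IL-1β, with EPCAM and CDH1 not detected. This sum is on the linear scale and mostly follows KRT18. Its mean log2 intensity in controls was 13.74, against 10.26 for KRT8 and 9.96 for KRT19. The part of these markers in the SR protein result was not tested.

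SRSF3, the smallest of the classical SR proteins and a regulator of mRNA export and 3′ end choice as well as of splicing, had normalized log2 intensities of 9.76 and 9.73 in controls and 9.29 and 9.18 after IL-1β. Both treated arrays were below both controls, and the gap between groups was larger than the gap within either. The level was 1.43-fold lower (95% confidence interval 1.205 to 1.689), a log2 difference of -0.51 ± 0.10 (SE, n = 2 a group, limma adjusted p = 0.112). Another SRSF3 probe, annotated to the same transcript, was not detected on any array, so these values rest on a single probe. SRSF6, which regulates alternative exons in epithelial and other tissues, measured 12.26 and 12.11 in controls and 11.82 and 11.82 after IL-1β. It was 1.29-fold lower (1.08 to 1.53, limma adjusted p = 0.176). Both SRSF6 groups were again apart.

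SRSF7, a close relative of SRSF3 that also adapts mRNA for export, measured 10.89 and 10.77 in controls and 10.52 and 10.52 after IL-1β, which is 1.24-fold lower (1.04 to 1.46, limma adjusted p = 0.204). SRSF1, the founding SR protein and a promoter of proliferation in many cells, measured 11.63 and 11.43 in controls and 11.18 and 11.28 after IL-1β. It was 1.23-fold lower (1.011 to 1.501, limma adjusted p = 0.255), and its IL-1β arrays lay below both controls. Without control replicate 1 its log2 difference of -0.30 was -0.20. SRSF2, which binds exonic enhancers and also acts in transcription elongation, measured 12.64 on both controls and 12.19 and 12.49 after IL-1β. Its log2 difference of -0.30 ± 0.13 had an adjusted p of 0.292 in the limma fit, and it was -0.15 without IL-1β replicate 1, the lower of the treated arrays.

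SRSF10, an SR protein known as a splicing repressor when dephosphorylated, has 3 tested probes, which gave log2 differences of -0.25 ± 0.11, -0.30 ± 0.11 and -0.37 ± 0.17. The 3 probes are on the same side of 0. It was named here after its values were seen. The remaining 5 genes overlapped between groups: SRSF4 at -0.07, SRSF9 at 0.03, SRSF11 at 0.04, SRSF5 at 0.04 and SRSF8 at 0.06. SRSF5, another exonic enhancer-binding SR protein, measured 12.47 and 12.22 in controls and 12.30 and 12.47 after IL-1β, so that both groups span the same range.

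**Figure D2:**
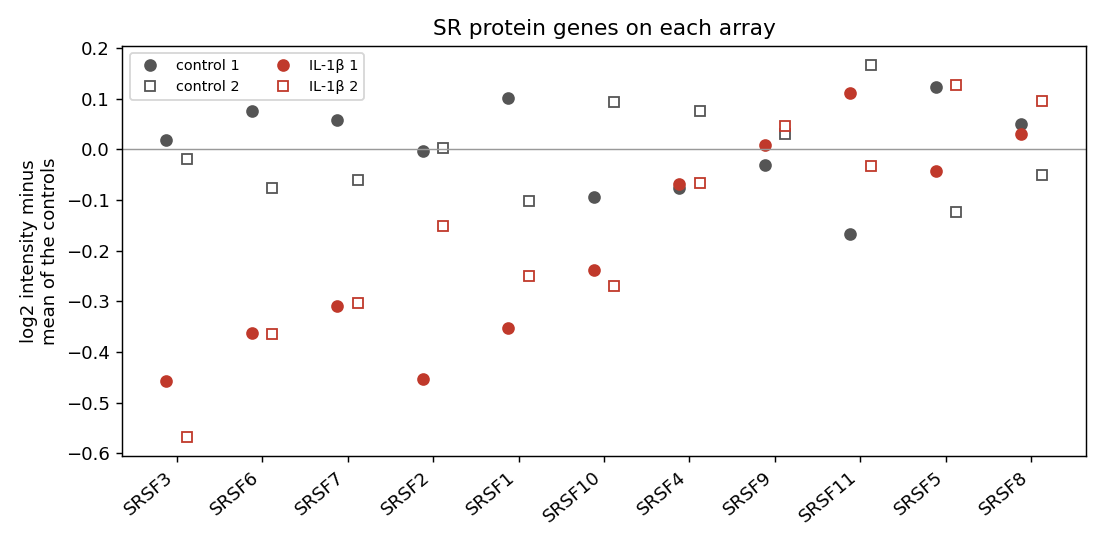
Normalized log2 intensity of each SR protein gene on the 2 control and 2 IL-1β arrays, relative to its control mean. For SRSF1, SRSF2, SRSF3, SRSF6, SRSF7 and SRSF10 both IL-1β points lie under both control points, while the points of the other 5 genes mix.

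The promoters of 4 of the 6 SR genes that were lower with separate groups, and of SF3B6 and PRPF4, which were higher, are shown. They were picked as examples after the values were seen, and those of SRSF2 and SRSF7 are not shown. Each run is the 250 bases upstream of the RefSeq gene start, read 5′ to 3′ on the gene's strand in GRCh38.p14. SRSF1 lies at chr17:58007247-58007496 on the minus strand, SRSF3 at chr6:36594112-36594361 on the plus strand and SRSF6 at chr20:43457646-43457895 on the plus strand. SRSF10 lies at chr1:23980328-23980577 on the minus strand, SF3B6 at chr2:24076327-24076576 on the minus strand and PRPF4 at chr9:113275408-113275657 on the plus strand. Capitals mark matches on either strand to the CCAAT box (its own letters), the GC box GGGCGG, the TATA box TATAAA, the cyclic AMP response element TGACGTCA, the ETS letters CCGGAAGT or the NF-κB consensus, none of which contains another.
SRSF1: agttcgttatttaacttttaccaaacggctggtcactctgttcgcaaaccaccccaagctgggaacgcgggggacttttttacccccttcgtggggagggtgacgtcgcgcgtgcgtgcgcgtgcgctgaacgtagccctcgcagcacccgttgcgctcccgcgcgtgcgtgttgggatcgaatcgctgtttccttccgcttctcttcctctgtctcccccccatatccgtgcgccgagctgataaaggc
SRSF3: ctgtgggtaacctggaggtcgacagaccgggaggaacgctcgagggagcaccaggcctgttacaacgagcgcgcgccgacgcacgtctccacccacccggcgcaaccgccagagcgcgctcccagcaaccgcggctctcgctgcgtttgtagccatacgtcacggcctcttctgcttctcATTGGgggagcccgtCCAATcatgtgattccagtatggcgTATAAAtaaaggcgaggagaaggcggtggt
SRSF6: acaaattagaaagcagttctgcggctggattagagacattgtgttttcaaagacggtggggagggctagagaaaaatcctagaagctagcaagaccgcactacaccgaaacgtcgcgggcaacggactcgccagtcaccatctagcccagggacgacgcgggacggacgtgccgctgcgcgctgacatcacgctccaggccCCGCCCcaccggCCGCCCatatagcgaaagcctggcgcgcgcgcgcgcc
SRSF10: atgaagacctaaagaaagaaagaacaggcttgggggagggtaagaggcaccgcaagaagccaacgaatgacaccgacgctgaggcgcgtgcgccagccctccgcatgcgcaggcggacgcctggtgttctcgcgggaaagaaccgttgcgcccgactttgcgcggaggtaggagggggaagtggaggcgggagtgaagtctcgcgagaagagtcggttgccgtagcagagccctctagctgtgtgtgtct
SF3B6: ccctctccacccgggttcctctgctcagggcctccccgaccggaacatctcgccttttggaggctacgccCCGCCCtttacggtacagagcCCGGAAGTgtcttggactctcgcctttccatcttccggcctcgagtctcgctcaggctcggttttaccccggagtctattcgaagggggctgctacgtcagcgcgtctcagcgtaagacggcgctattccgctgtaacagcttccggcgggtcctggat
PRPF4: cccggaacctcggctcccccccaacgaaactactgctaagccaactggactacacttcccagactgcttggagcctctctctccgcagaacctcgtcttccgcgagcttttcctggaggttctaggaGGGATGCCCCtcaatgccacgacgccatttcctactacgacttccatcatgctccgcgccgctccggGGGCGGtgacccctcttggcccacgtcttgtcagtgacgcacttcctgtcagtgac

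Promoters were found for 54 of the 62 genes, 77 in all, and 13 of these belong to 10 SRSF genes. SRSF1 and SRSF10 have none of the 6 motifs in this window, SRSF3 has 2 CCAAT matches beside TATAAA, and SRSF6 has 2 GGGCGG matches. The motif CCAAT is in 23.1% of the SRSF promoters, 41.6% of the 77 and 32.0% of all 35116 promoters of the same length. CCGGAAGT, the letters of an ETS site, is in 15.4%, 13% and 3.42% respectively, and the NF-κB consensus in 7.69%, 10.4% and 5.21%. In the SRSF promoters these are 2 of 13, for SRSF4 and SRSF5, and 1 of 13, for SRSF11, genes whose groups overlapped. GGGCGG is in 30.8%, 49.4% and 42.6%, and TATAAA in 23.1%, 9.09% and 10.7%. TGACGTCA is in 0 of the 77 and 1.65% of all. The median GC content was 61.6% over the 77 promoters and 58% over all, so that motifs rich in G and C meet different base composition in these sets.

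The hnRNP genes spread to both sides, with 15 lower and 9 higher of 24 and a median log2 difference of -0.05. The 24 include 3 pseudogenes, all lower, 1 of them at an unadjusted p under 0.05 and 2 with groups that do not overlap. At an unadjusted p under 0.05, 5 of the 24 (20.8%) were lower and 1 (4.17%) higher, against 8.36% and 9.4% of all genes. The groups did not overlap for 9 genes that were lower (37.5%) and 5 that were higher (20.8%), against 25.1% and 26.3% of all genes. HNRNPA3 was the only gene of the 62 at least 1.5-fold apart with groups that do not overlap, a size reached lower by 1.34% and higher by 1.5% of all genes. HNRNPA3, which binds RNA and telomeric DNA, measured 9.25 and 9.43 in controls and 8.52 and 8.95 after IL-1β. It was 1.52-fold lower (1.14 to 2.03, limma adjusted p = 0.174), with IL-1β replicate 1 the lowest array. The log2 difference of -0.60 was -0.39 without that array and -0.51 without control replicate 2. It was also short of 1.5-fold with an offset of 50 (-0.57), no background correction (-0.47) and the factors of the authors' averages (-0.56).

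HNRNPF, which binds runs of G and regulates exon choice, measured 7.29 and 7.27 in controls and 6.88 and 6.81 after IL-1β, 1.35-fold lower (1.15 to 1.59, limma adjusted p = 0.127). This dim probe's log2 difference of -0.43 was -0.21 with no background correction and -0.20 with the factors of the authors' averages. HNRNPLL, a regulator of CD45 exon choice in lymphocytes, measured 8.07 and 7.92 in controls and 7.56 and 7.60 after IL-1β, 1.34-fold lower (1.12 to 1.60, limma adjusted p = 0.149), a log2 difference of -0.42 that was -0.25 with no background correction. HNRNPA2B1, which binds RNA in the nucleus and sorts it in the cytoplasm, measured 12.72 and 12.67 in controls and 12.39 and 12.40 after IL-1β, 1.23-fold lower (1.05 to 1.44, limma adjusted p = 0.197). In each of these 3 genes every IL-1β array lay below every control. The other probe of HNRNPA2B1 differed by -0.06 ± 0.11, and the mean of both by -0.18.

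HNRNPUL1, a nuclear protein of the HNRNPU family that takes part in RNA processing and the response to DNA breaks, was the highest of the family. It measured 11.62 and 11.55 in controls and 11.90 and 11.87 after IL-1β, 1.23-fold higher (1.05 to 1.45, limma adjusted p = 0.199). Its other probe, annotated to the same transcript, differed by -0.0023 ± 0.11, so the direction rests on a single probe. The log2 difference of 0.30 was 0.15 for the mean of both probes and 0.17 with the factors of the authors' averages. Among the abundant members fixed by name, HNRNPU, a scaffold protein of the nucleus, differed by 0.25 ± 0.15 with overlapping groups. HNRNPC, which covers uridine tracts and blocks cryptic exons, differed by 0.14 ± 0.10, HNRNPD, which binds AU-rich mRNA, by 0.14 ± 0.11, HNRNPL, which binds CA repeats, by 0.14 ± 0.14 and HNRNPK, which binds C-rich RNA, by -0.06 ± 0.12. HNRNPDL at -0.21 and HNRNPH3 at 0.20 had groups that do not overlap and were named after their values were seen.

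HNRNPA1, the prototype splicing silencer protein, differed by 0.14 ± 0.18 on its brighter probe, with 8.88 and 9.39 in controls and 9.27 and 9.28 after IL-1β. Its copies give no single answer. The pseudogene HNRNPA1P10 measured 9.83 and 9.55 in controls and 9.13 and 9.08 after IL-1β, 1.49-fold lower (1.202 to 1.855, limma adjusted p = 0.127), whereas HNRNPA1L2 at -0.03 and HNRNPA1P33 at -0.11 overlapped between groups. HNRNPA3P1, a copy of HNRNPA3, differed by -0.16. These genes are near-identical in sequence and a probe named for a copy may read its parent, so their values are uncertain.

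The snRNP protein genes lay near 0. Their median was -0.06, with 7 of 11 lower and 4 higher. At an unadjusted p under 0.05, 0 were lower and 0 higher, against 8.36% and 9.4% of all genes. The groups did not overlap for 2 that were lower and 1 that was higher, 18.2% and 9.09%, against 25.1% and 26.3% of all genes. SNRPA, the protein of the U1 particle that binds its RNA, measured 9.28 and 9.15 in controls and 8.94 and 9.02 after IL-1β, a log2 difference of -0.23 ± 0.10 (limma adjusted p = 0.300). The Sm protein gene SNRPD1 had the lowest difference of the family at -0.38 ± 0.22, but control replicate 1 alone was high, at 8.22, against 7.58 on the other control and 7.63 and 7.42 after IL-1β. SNRPB, the gene of the Sm proteins B and B′, had the highest at 0.12 ± 0.11. Its groups overlapped.

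SNRPN, an imprinted gene for a Sm protein close to SNRPB that is used mainly in neurons, has 3 tested probes at -0.06, 0.11 and -0.13. Its probes disagree in sign, and none passed an unadjusted p of 0.05. SNRPF, another Sm protein gene, gave -0.20 and -0.17 on its 2 probes and was named after its values were seen.

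The U2 snRNP complexes SF3A and SF3B held mostly values above 0, although median scaling over all probes put the medians of both below 0 (-0.12 and -0.10) and the factors of the authors' averages put that of SF3A at -0.012. SF3A3, a core subunit of SF3A, measured 11.21 and 11.12 in controls and 11.31 and 11.29 after IL-1β, a log2 difference of 0.14 ± 0.10. SF3A2 differed by 0.06 ± 0.16 with overlapping groups. SF3A1, which bridges U2 to U1, was not detected.

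The median of the SF3B genes was 0.12, with 4 of 6 higher and 2 lower. At an unadjusted p under 0.05, 0 were lower and 1 (16.7%) was higher, against 8.36% and 9.4% of all genes. The higher one is SF3B6, whose product p14 sits at the branch point adenosine. It measured 12.79 and 12.85 in controls and 13.13 and 13.04 after IL-1β, 1.2-fold higher (1.02 to 1.42, limma adjusted p = 0.247). Its other probe gave 0.31 ± 0.10, so both probes of SF3B6 agree in direction and size. SF3B2, a partner of SF3B4 at the branch site, measured 9.86 and 9.84 in controls and 10.08 and 10.05 after IL-1β, a log2 difference of 0.22 ± 0.09.

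The others of the complex went both ways. SF3B1, the branch site clamp that is mutated in some leukaemias and melanomas, differed by -0.21 ± 0.11 on its brighter probe and by -0.40 ± 0.15 on the other. SF3B4 differed by -0.25 ± 0.12, with 10.61 and 10.80 in controls and 10.52 and 10.39 after IL-1β. SF3B3, a scaffold subunit, differed by 0.07 ± 0.09, and SF3B5 by 0.17 ± 0.14 with overlapping groups. All of these had limma adjusted p-values above the threshold.

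The PRPF genes split evenly, 4 above 0 and 4 below, around a median of 0.00. At an unadjusted p under 0.05, 2 (25%) were lower and 1 (12.5%) higher, against 8.36% and 9.4% of all genes. PRPF4, a U4/U6 protein of the tri-snRNP, measured 10.32 and 10.36 in controls and 10.56 and 10.61 after IL-1β, 1.18-fold higher (1.01 to 1.39, limma adjusted p = 0.255). Its log2 difference of 0.24 was 0.12 with the factors of the authors' averages. PRPF3, its partner in the same particle, was 0.22 ± 0.09 lower on the log2 scale, with 9.89 and 9.90 in controls and 9.67 and 9.67 after IL-1β. PRPF3 was named after its values were seen. The 2 partners thus differed in opposite directions, and neither passed the threshold.

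PRPF19, the ubiquitin ligase of the complex that activates the spliceosome, measured 9.23 and 9.34 in controls and 9.09 and 8.94 after IL-1β, 1.21-fold lower (1.00 to 1.45, limma adjusted p = 0.263). PRPF38A, which joins just before activation, measured 7.23 and 7.18 in controls and 6.933 and 6.996 after IL-1β, 1.18-fold lower (1.00 to 1.39, limma adjusted p = 0.267). Its log2 difference of -0.24 was -0.12 with no background correction, -0.11 with the factors of the authors' averages and -0.37 in the series matrix. Both had separate groups. PRPF8, the protein at the catalytic centre, and PRPF31, a tri-snRNP protein mutated in retinitis pigmentosa, overlapped between groups at 0.10 ± 0.11 and 0.12 ± 0.13.

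**Figure D3:**
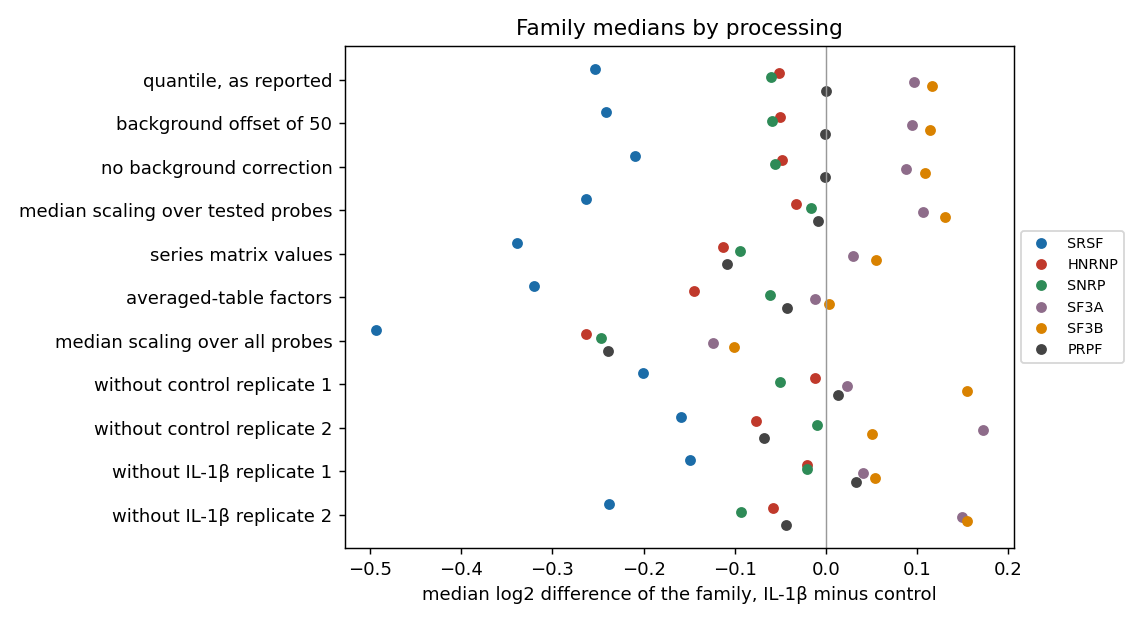
Median log2 difference, IL-1β minus control, of each family under the normalization used here and under the alternatives. The SRSF median lies below 0 under each setting and falls to -0.49 with median scaling over all probes, which also puts the median of all probes tested at -0.22.

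Where a gene has more than 1 tested probe, the brightest was set against each other probe as a log2 ratio within the array. There were 22 such pairs, of which 20 pairs of 17 genes have both probes detected in both groups. Of these 20, 8 had the same sign and 12 opposite signs, beside 63.4% of the same sign among all 2298 such pairs on the array. The median size of the disagreement was 0.13 for the splicing factors and 0.14 over all pairs. Of the 20, 0 passed an adjusted p of 0.05 in the limma fit, against 0.0435% of all pairs, and 0 an unadjusted p of 0.05, against 9.36%. In no gene did probes of opposite sign both reach an unadjusted p of 0.05.

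Among these 20 pairs the ratio of the probes differed most between groups for HNRNPUL1, by 0.30, and this was 0.19 without control replicate 2. HNRNPU followed at 0.27, HNRNPA2B1 at -0.24 and HNRNPC at 0.21.

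The remaining 2 pairs, of HNRNPM and HNRNPA1, hold a dim probe that was detected on both control arrays and on neither IL-1β array, so only a bound is measured. HNRNPM regulates exon choice in epithelial and mesenchymal cells. Its bright probe measured 12.05 and 11.98 in controls and 11.96 and 11.99 after IL-1β, a log2 difference of -0.04 ± 0.09. Its dim probe, annotated to another RefSeq transcript, measured 6.44 and 6.86 in controls and was at least 1.52-fold lower after IL-1β (limma adjusted p = 0.114).

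The dim probe of HNRNPA1, also annotated to another transcript than the bright one, measured 6.68 and 6.30 in controls and was at least 1.36-fold lower after IL-1β (limma adjusted p = 0.152), beside 0.14 on the bright probe. Each bound sets the mean of the controls against the higher of the probe's own signal and the lowest signal of a detected probe on each IL-1β array. With no background correction the bounds were 1.17-fold for HNRNPM and 1.11-fold for HNRNPA1, and with the factors of the authors' averages 1.13-fold and 1.07-fold. Both probes passed the filter only through the control arrays, so they had to be lower after IL-1β, and their direction is no support for a difference.

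**Figure D4:**
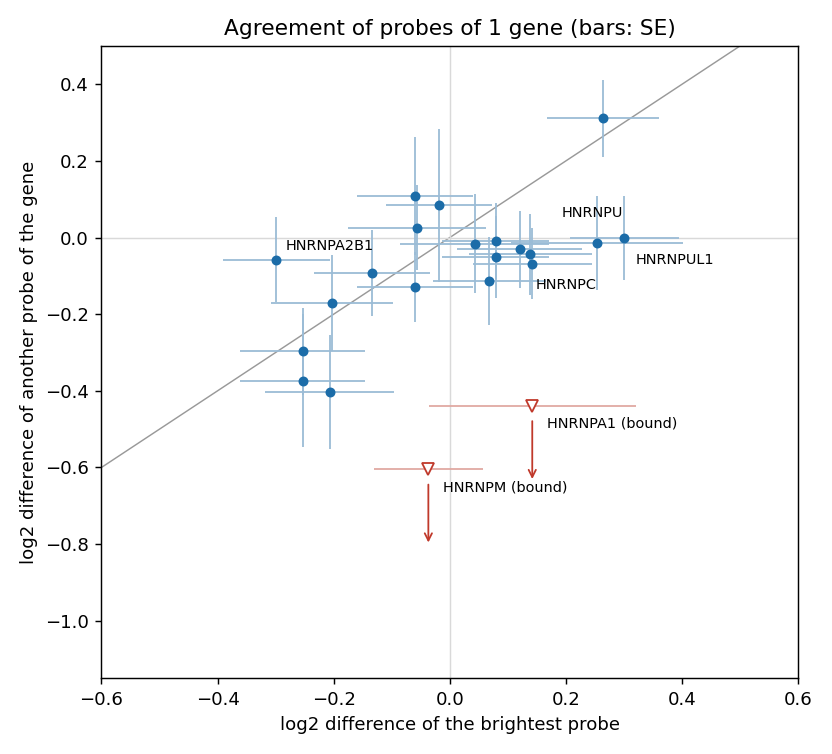
Log2 difference, IL-1β minus control, of the brightest probe (x axis) against another probe of the same gene (y axis), with bars for the SE and a line where both are equal. Filled points are the 20 pairs measured in both groups. Open triangles with arrows are upper limits for the HNRNPM and HNRNPA1 probes not detected after IL-1β, at bounds of 1.52-fold and 1.36-fold lower. These bounds were 1.13-fold and 1.07-fold with the factors of the authors' averages. Both probes passed the filter only through the control arrays, so their direction is no support for a difference.

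Other genes of the splicing machinery and its regulators, listed by name beside the 6 families, gave 69 tested genes of 79 listed. Their median was 0.01, with 36 above 0 and 33 below. At an unadjusted p under 0.05, 16 (23.2%) were lower and 4 (5.8%) higher, beside the 8.36% and 9.4% of all genes given above. TRA2A and TRA2B, SR-like activators of exon inclusion, were both among the lower. TRA2A measured 9.15 and 8.90 in controls and 8.501 and 8.439 after IL-1β, a log2 difference of -0.55 ± 0.12 with the smallest adjusted p of the list, 0.127 (limma). TRA2B differed by -0.30 ± 0.10.

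The branch point protein SF1 differed by -0.61 ± 0.18 on a dim probe, with 6.68 and 7.17 in controls and 6.36 and 6.26 after IL-1β. The lowest signal of a detected probe was 6.12 and 6.16 on the controls and 6.07 and 6.03 on the IL-1β arrays, so the size is uncertain. Of the U2AF dimer, the small subunit U2AF1, which reads the 3′ splice site, differed by -0.42 ± 0.14, whereas the large subunit U2AF2, which binds SF1 and was named after its values were seen, differed by 0.09 ± 0.09. Others that were lower included the SR-related proteins RBM25 at -0.48 and RBM39 at -0.47, and RBM10 at -0.33. The RNA helicases SNRNP200 at -0.42, DDX46 at -0.28 and DHX8 at -0.24 were lower too. The SNRNP200 probe is also dim, at 6.72 and 6.70 in controls and 6.48 and 6.10 after IL-1β. So is that of DHX8, at 6.65 and 6.76 in controls and 6.48 and 6.45 after IL-1β. MBNL1 and MBNL2, developmental regulators of exon choice, both differed by -0.35, CELF1, which opposes them, by -0.40, and QKI, which acts in mesenchymal exon choice and circular RNA formation, by -0.38. The QKI probe is dim too, at 7.05 and 7.02 in controls and 6.62 and 6.68 after IL-1β. The exon junction protein MAGOH and the SR kinase SRPK2 both differed by -0.31. The 4 that were higher were RBM17 at 0.38, CLK1, a kinase that phosphorylates SR proteins, at 0.37, and SNRNP40 and LSM4 at 0.28.

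The authors' deposited score table, made from the same arrays, lists 1440 scores with a smallest size of 13, of which 84.4% are below 0. It holds 17 matches to the splicing factors by symbol or older symbol, 16 below 0 and 1 above. The array names 69 splicing factor genes among 18665 genes in all. No share of all genes matched in the same way is given here, so the count of 17 cannot be called high or low. In the authors' deposited table SRSF3 scored -117, HNRNPA2B1 -119, SRSF7 -56.3, PRPF3 -51.4, SRSF6 -47.2 and SNRPA -39.4, and HNRNPUL1 was the single gene above 0, at 19.9. A row with an older symbol of HNRNPA3 also matched HNRNPA3P1 and counts for both. The authors' deposited means for SRSF3 were 1031 in controls and 716 after IL-1β, a ratio of 0.694, and for SRSF6 a ratio of 0.722. These are other readings of the same 4 arrays, with a per-array scaling that moved the median of all probes tested below 0, and how the score was computed is not stated in the sources used here.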

How the data were processed

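RNA of 4 samples, 2 untreated and 2 given IL-1β, was measured on 1 array each. The deposited raw file gives a column of values per sample, and beside each a deposited detection p-value, per the file headers. The headers do not state the scale. The lowest value of an array was 109.8 to 125.76, and the values were taken as linear intensities without background subtraction. As read from the values, the deposited series matrix is a linear function of each array's raw intensities, with a subtracted constant beside a factor (mean 322 on every array, medians 8.92 to 10.9), whereas the authors' table of averaged intensities was made with 1 factor per array (0.952, 0.914, 1.04 and 1.12) and no subtraction. The score table of the authors carries no header, and neither its formula nor the array software is stated in the sources used here.

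Normalization of the raw intensities used limma 3.58.1 under R 4.3.3 and its function neqc (background inferred from detection p-values, offset 16, quantile normalization, log2). Probes detected (p under 0.01) on 2 or more arrays were compared two-sided with lmFit and eBayes, with Benjamini-Hochberg adjustment over 13152 probes and a threshold of 0.05. The same fit was run on the within-array ratios of 2370 probe pairs. Log2 differences had a median SE of 0.111. Both fits were tested on simulated data. Changes of 1.41-, 2- and 4-fold were planted together in each run. With a true change of 1.41-fold, 3.43% of probes and 0.294% of pairs were called, and with one of 2-fold, 77.2% and 34.7%. The strong planted changes ease the adjustment for the others, whereas 0 of the 13152 real probes passed. Recovery in the real probe fit would therefore be lower than these shares. A true change of 1.41-fold would thus mostly be missed at the threshold. A gene is read by its tested probe of highest mean. Intervals after a fold are 95% confidence intervals. Of the array's probes, 27578 have 1 gene, 13 have several and were not named, and 21212 have none listed. Promoters came from RefSeq on GRCh38.p14, 250 bases upstream of the start.

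Named are the members with the highest and lowest difference of each of the 6 families, those with an unadjusted p under 0.05, the 6 probe pairs that disagree most, and genes fixed by name. The members, lists and rules were chosen with earlier results of these data known. Replicate numbers 1 and 2 are shared by the groups but were not used for pairing: deviations of same-numbered samples correlated at -0.0868. Alternatives were other background corrections, scalings, filters, fits and leaving out each array.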

Additional observations from a re-analysis of the deposited data

How the results depend on the processing

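Of 615 values of 41 named genes under 15 alternatives, 547 kept their direction and side of the threshold, 35 (of 18 genes) passed an adjusted p of 0.05 and 33 (of 17 genes) changed sign. SRSF1, SRSF2, SRSF3, SRSF6, SRSF7 and SRSF10 were lower under every alternative run. Splicing factor probes past an adjusted p of 0.05 numbered 5 with no background correction (4.74% of all probes were called), 9 with median scaling over all probes (6.99%; 2 of the 9 are the dim HNRNPM and HNRNPA1 probes, not detected after IL-1β), 16 with the authors' averaged-table factors (8.34%) and 8 with a trended, robust prior (5.54%), and 0 under the others. All were lower, except 2 of the 8, for HNRNPUL1 and SF3B6. The shares count both directions. Of all probes called, 331 of 624 were lower with no background correction and 861 of 919 with median scaling over all probes. With the averaged-table factors 858 of 1097 were lower, and with the trended, robust prior 389 of 728. The causes were not tested. At an unadjusted p under 0.05, 15 probes were lower, those 2 dim ones included, and 4 higher, beside 9.28% and 9.25% of all probes; shares below are likewise over all probes or, by size, all genes under the same setting.

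Median scaling over all probes moved the median of all probes tested to -0.22 and gave medians of -0.49 (SRSF), -0.26 (HNRNP), -0.25 (SNRP), -0.12 (SF3A), -0.10 (SF3B), -0.24 (PRPF) and -0.26 (the 62 genes), with 37 probes lower and 0 higher at an unadjusted p under 0.05 (32.2% and 1.95%) and 7 genes lower by at least 1.5-fold (5.36%). It turned HNRNPA1 (-0.10), HNRNPC (-0.081), HNRNPD (-0.045), HNRNPL (-0.095), HNRNPH3 (-0.038), PRPF31 (-0.11), PRPF8 (-0.11), SF3A2 (-0.17), SF3A3 (-0.077), SF3B2 (-0.012), SF3B3 (-0.15), SNRPB (-0.090), SRSF5 (-0.16) and SRSF8 (-0.17). Relative to the shift of all probes, these differences stay above 0. Median scaling over the tested probes gave -0.016 (SNRP), -0.025 (the 62 genes) and 2 genes lower by size (1.12%). The series matrix gave -0.34 (SRSF), -0.11 (HNRNP), 0.055 (SF3B), -0.11 (PRPF) and -0.11 (the 62 genes), 0 higher at an unadjusted p (4.97%) and 4 lower by size (3.04%), and turned SF3A2 (-0.019), SRSF5 (-0.0041) and SRSF8 (-0.023). The averaged-table factors gave -0.32 (SRSF), -0.14 (HNRNP), -0.012 (SF3A), 0.0036 (SF3B), -0.042 (PRPF) and -0.082 (the 62 genes), 25 lower and 2 higher at an unadjusted p (18% and 7.03%), 0 lower by size (0.429%) and 1 pair at an unadjusted p, and turned PRPF8 (-0.0059), SF3A2 (-0.049), SF3B3 (-0.043), SRSF5 (-0.059) and SRSF8 (-0.046).

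No background correction gave 7 higher at an unadjusted p (10.7%) and 0 lower by size (0.181%), and an offset of 50 gave 0 lower by size (0.666%). No filter gave -0.16 (SRSF), -0.057 (PRPF) and 2 higher at an unadjusted p (4.32%). Detection on all 4 arrays gave 0 pairs at an unadjusted p. The mean of a gene's probes gave -0.30 (SRSF) and turned HNRNPA1 (-0.23). The trended, robust prior gave 7 higher at an unadjusted p (10.6%). A 1.2-fold size gave 11 lower and 2 higher, against 9.69% and 11% of all genes. With the replicate number as a replicate block, 2 probes were higher and 12 lower at an unadjusted p (7.7% and 7.72%) and 0 at an adjusted p.

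Without each array in turn (the lone sample being assumed to vary like the other group), medians ran from -0.24 to -0.15 (SRSF), -0.077 to -0.012 (HNRNP), -0.093 to -0.0091 (SNRP), 0.024 to 0.17 (SF3A), 0.051 to 0.15 (SF3B), -0.067 to 0.033 (PRPF) and -0.058 to -0.0092 (the 62 genes). Probes at an adjusted p ran from 0 to 0, probes lower at an unadjusted p from 8 (6.87%) to 11 (6.32% and 6.52%) and higher from 0 (6.11% and 6.81%) to 3 (7.11%), genes lower by size from 1 to 2, higher by size from 0 to 0, pairs at an adjusted p from 0 to 1 (HNRNPM without IL-1β replicate 1) and at an unadjusted p from 1 to 3. Pair counts here include the HNRNPM and HNRNPA1 pairs, which have only a bound. Ranges that crossed 0 were -0.11 to 0.40 for HNRNPA1, -0.15 to 0.033 for HNRNPK, -0.0046 to 0.27 for HNRNPL, -0.075 to 0.00027 for HNRNPM, -0.14 to 0.26 for SF3A2, -0.13 to 0.0090 for SNRPN and -0.083 to 0.17 for SRSF5.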
